A study of Mus musculus with 20 samples.

Results

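Livers of obese mice that breathed fine airborne particles (PM2.5) and drank metformin were compared with livers of obese mice in filtered air. The comparison takes the 5 arrays whose labels name both PM2.5 exposure and metformin and the 5 arrays whose labels name filtered air, so 10 of the 20 arrays of the series. All 20 mice were male ob/ob mice, an obese strain without functional leptin. Every mouse was kept for 2 weeks at 22 °C and 55% humidity with 12 hours of light and gave liver RNA for 1 array. The group with both treatments, called the combined group here, spent 6 hours per day in a particle exposure chamber and received metformin in the drinking water, dosed by body weight. The other 2 groups, also of 5 mice each, had PM2.5 alone or metformin alone, and they are used here for the shared variance and for a closing side by side view. Chamber hours are stated for particle exposure alone, so particles and the stay in a chamber cannot be told apart. The labels used here give no particle level, metformin dose, age, litter, batch or hour of death. Mice are numbered 1 to 5 in the order of the deposited samples, and a shared number pairs nothing. Where nothing says how animals were housed or processed together, p-values measure the spread between these mice alone.

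Metformin is an oral drug that lowers glucose output by the liver and acts in part on mitochondrial respiration and on the energy sensor AMPK. Inhaled fine particles reach the liver mainly through signals and material carried by the blood. The liver of a leptin-deficient mouse makes fat from sugar at a high rate under insulin, through the transcription factors SREBP-1c and ChREBP, while PPAR-alpha and glucocorticoid signals drive fat burning and glucose production in fasting.

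The arrays were checked first. Within the filtered-air group the arrays correlated across tested genes at 0.9893 to 0.994, and within the combined group at 0.9723 to 0.9931. No pair of arrays held identical values. On the first principal component of the 10 arrays, which held 51.85% of their variance, filtered-air mice lay between -34.23 and -20.81. The combined mice lay at 14.4, 53.24, 26.96, 52.92 and 3.851, so mice 2 and 4 stood farthest from filtered air and mouse 5 nearest to it. The 5222 negative-control probe sets were picked by name alone, and what they read was not examined. Their 95th percentile averaged 8.176 in filtered air, above the median of 7.81 over tested genes, so not all of them were dim. They had array medians of 4.394, 4.431, 4.432, 4.424 and 4.361 (log2) in filtered air. Their medians were 4.586, 4.787, 4.464, 4.686 and 4.44 in combined mice 1 to 5. Every combined array lay above every filtered-air array, with mice 2 and 4 highest. The group means were 4.41 ± 0.03 and 4.59 ± 0.15 (SD, n = 5), a difference of 0.18 (two-sided exact permutation test over all splits of the 10 mice, p = 0.00794, the smallest the design can give; adjusted p = 0.0119 over 6 control measures). Without mice 2 and 4 the difference was 0.09 (exact permutation p = 0.0179).

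Other controls moved as well. Positive-control probe sets were higher in the combined group (9.52 ± 0.06 against 9.26 ± 0.12, adjusted p = 0.0119, exact permutation). Probe sets for spike-in transcripts, which where used are added to the RNA or to the hybridization mix in fixed amounts, were lower. The ERCC median was 3.42 ± 0.06 against 3.64 ± 0.07 (adjusted p = 0.0119, exact permutation). Both ERCC values lay below the negative-control medians of 4.59 and 4.41, so nothing here shows that ERCC transcripts were added. The poly-A spike-in mean was 7.30 ± 0.09 against 7.80 ± 0.14 (adjusted p = 0.0119, exact permutation). Hybridization spike-ins were at 9.68 ± 0.22 against 10.05 ± 0.18 (adjusted p = 0.0381, exact permutation). The 23 background probe sets were at 4.48 ± 0.12 against 4.60 ± 0.11, which did not pass (p = 0.151, exact permutation). The median of all 22206 non-control probe sets was nearly level, 4.86 against 4.84 (exact permutation p = 0.389). Because control signal moves with the groups, gene results below were computed in other ways too. Differences from filtered air in the combined group were also computed with the negative-control median as covariate and without combined mice 2 and 4. For the interaction only the count of genes was recomputed so, and values of the single treatments were not.

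**Figure D1:**
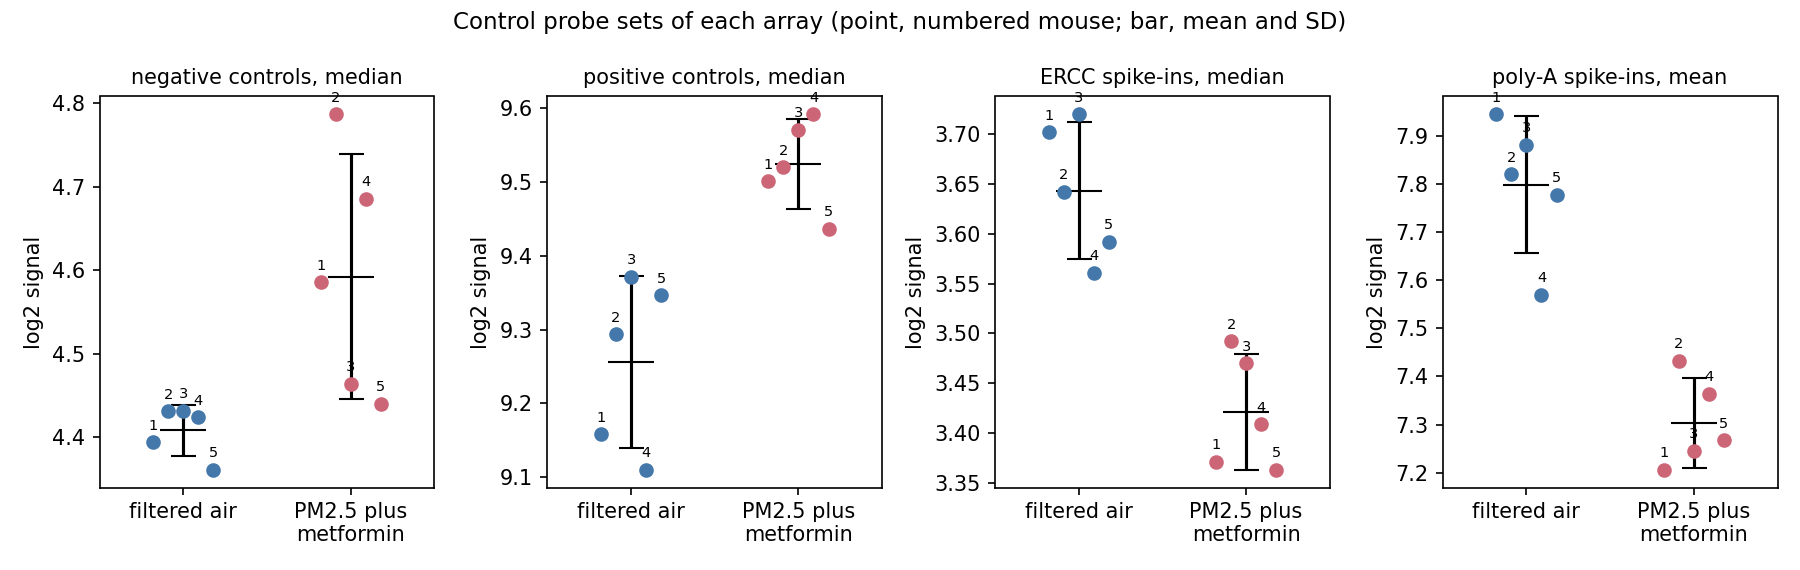
Log2 signal of 4 kinds of control probe sets on each array (y axis) in filtered air and in the combined group (x axis); points are mice with their numbers, and bars give the mean and SD of 5. Negative and positive controls lay higher on every combined array than on any filtered-air array, ERCC and poly-A spike-ins lay lower, and combined mice 2 and 4 had the highest negative-control medians, 4.787 and 4.686.

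With both treatments 4136 of 11844 tested genes differed from filtered air (34.9%; limma, Benjamini-Hochberg adjusted p under 0.05 over all tested genes). Of these 2214 rose (18.7% of tested genes) and 1922 fell (16.2%), while the median difference over all tested genes was 0.01. At least a 2-fold change was reached by 459 genes that rose and 439 that fell, and at least a 4-fold change by 18 and 35. The 2 groups did not overlap at all for 2321 of the called genes, and for 20.8% of tested genes at any p. Leaving out combined mice 2 and 4, 2544 genes passed (21.5%), and 2400 of the original calls held with the same sign, 1471 rises and 929 falls. Under the covariate 1054 genes passed (8.9%), 756 higher and 298 lower, and 981 of the original calls held. In all 3 fits 706 genes rose (5.96%) and 270 fell (2.28%). Under the covariate 32.11% of the rises and 14.05% of the falls held. Differences are log2 values with standard errors, and "rose" and "fell" are used for genes past the threshold with all 10 mice. The shares over all tested genes, 18.7% higher and 16.2% lower, are the background for every list count with all mice and no covariate below. List counts of the 2 alternatives have lower backgrounds of their own. These are 21.5% of tested genes without combined mice 2 and 4 (1574 higher, 970 lower). With the covariate they are 8.9% (756 higher, 298 lower), so a smaller list count there is not in itself a loss against the background.

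**Figure D2:**
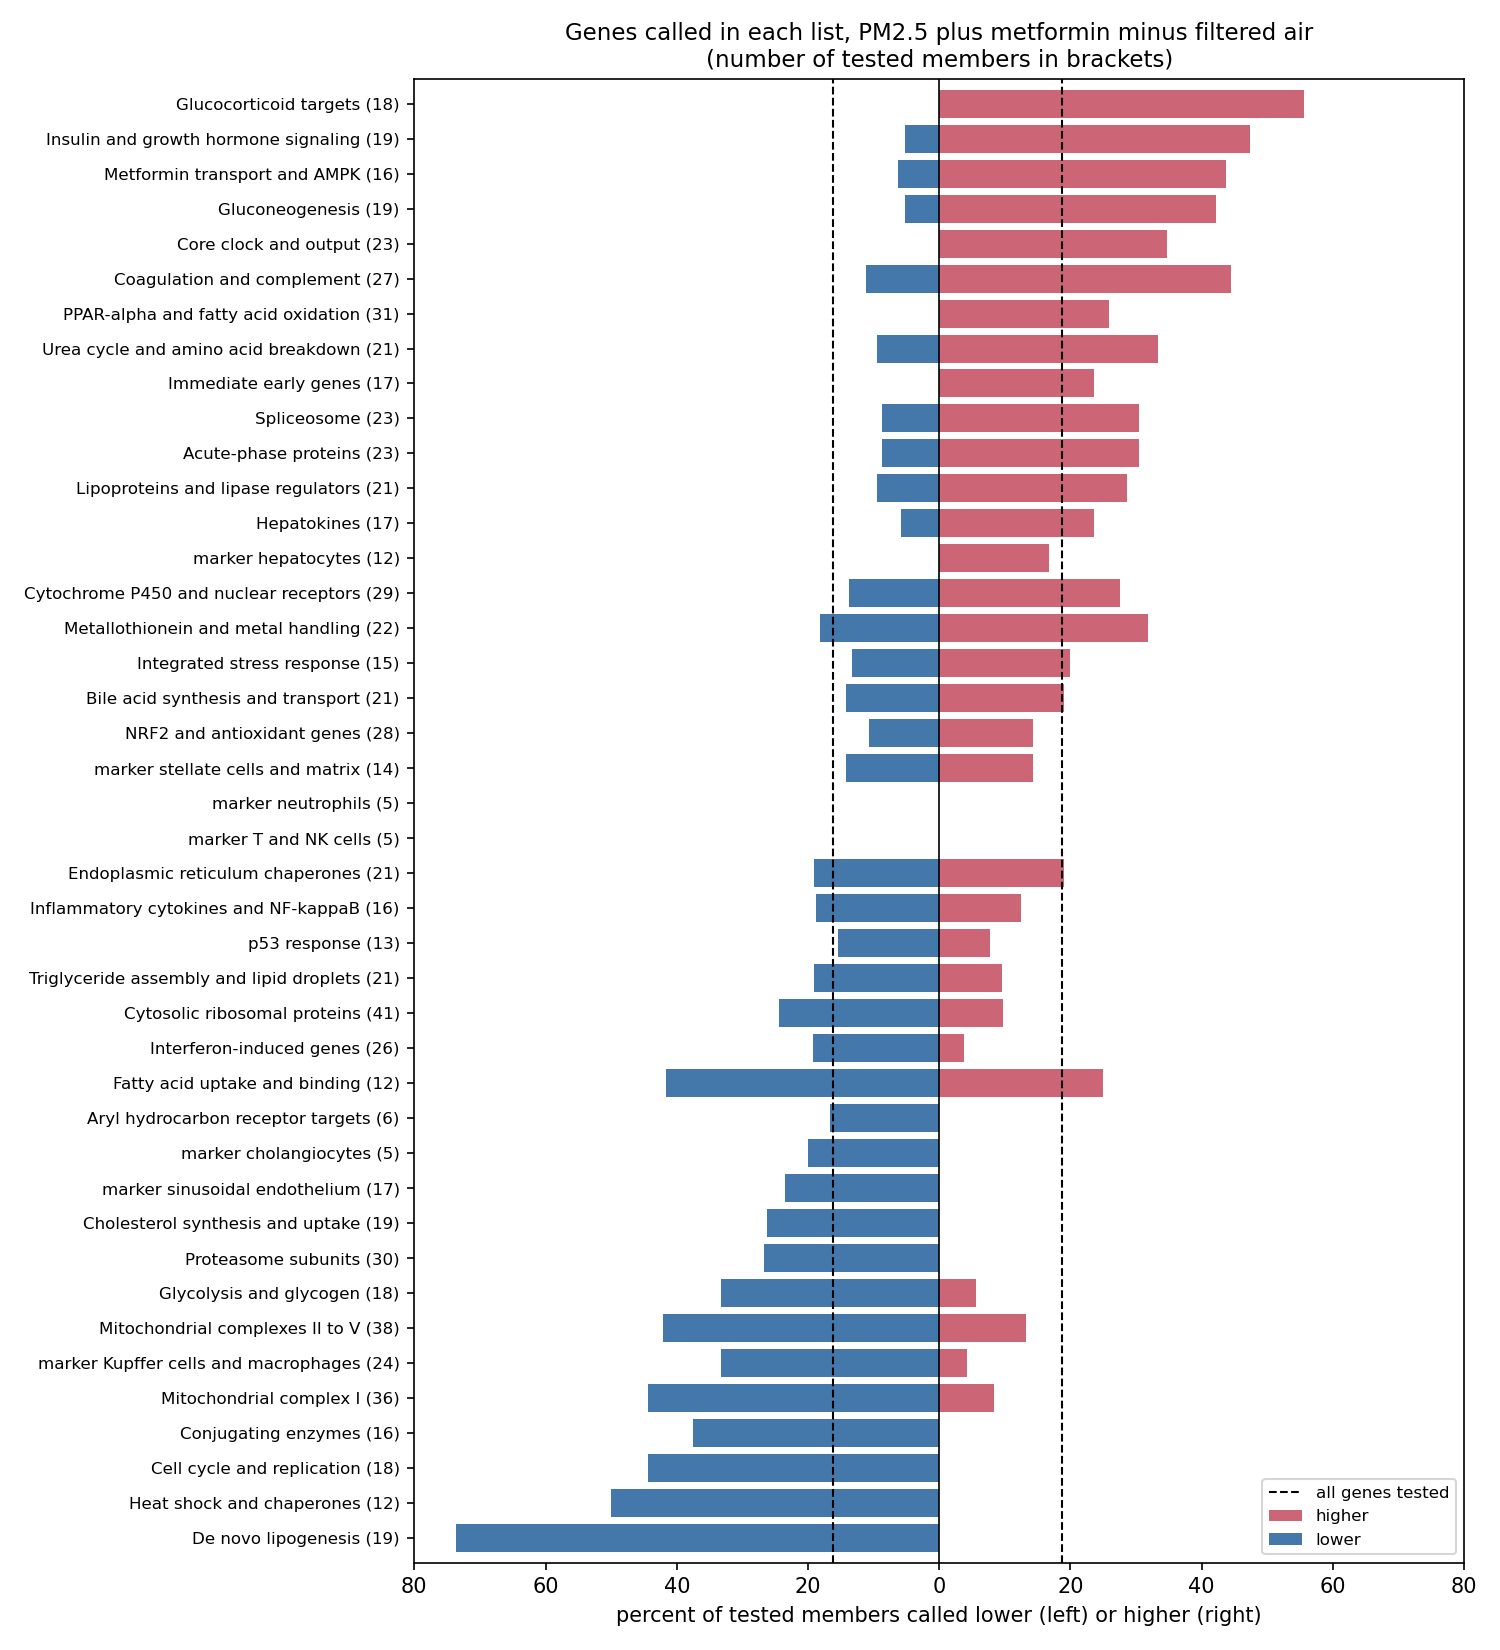
Percent of tested members called lower (bars to the left) or higher (bars to the right) in each gene list with at least 5 tested members, combined group minus filtered air; dashed lines give the shares over all tested genes, 16.2% lower and 18.7% higher. Lipogenesis, with 14 of 19 members lower, and glucocorticoid targets, with 10 of 18 higher, stand at the ends.

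Markers of the liver's cell types were examined next. Hepatocyte markers were abundant in every mouse. Their summed linear signal ran from 2937000 to 2990000 in filtered air and from 2892000 to 3087000 in the combined group, 2 of 12 rose, 0 fell and the list median was -0.02. Markers of Kupffer cells, the resident macrophages of the liver, fell in part. Their summed signal was 20230 to 37370 in filtered air and 5176 to 43520 in the combined group, 8 of 24 fell, 1 rose (Cd163) and the median was -0.48. Vsig4, a complement receptor of Kupffer cells, was at 13.02, 12.66, 12.71, 13.49 and 12.49 in filtered-air mice 1 to 5. It was at 11, 8.75, 10.47, 10.38 and 13.28 in combined mice 1 to 5. Mouse 5 lay within the filtered-air range and the other 4 lay below it (-2.09 ± 0.48, adjusted p = 0.00191). The macrophage gene Adgre1 (-1.28 ± 0.30, adjusted p = 0.00263) and the Kupffer cell lectin Clec4f (-1.48 ± 0.40, adjusted p = 0.00738) had the same layout, with mouse 5 at 8.89 and 10.93 among the filtered-air values. The rise of Cd163 no longer passed when filtered-air mouse 1, 2 or 5 or combined mouse 4 or 5 was left out. Leaving out mouse 2 or mouse 4 alone brought the falling markers to 5, leaving out both brought them to 2, and the covariate left 0 that fell and 2 that rose (list medians -0.10 and 0.20). In whole liver, fewer cells of a type and less RNA per cell cannot be told apart.

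Sinusoidal endothelial markers fell for 4 of 17 and rose for 0 (0 higher and 2 lower without combined mice 2 and 4, 0 and 1 with the covariate), with a median of 0.02 and a summed signal of 37640 to 49970 against 15610 to 41440. Clec4g, a lectin of these cells, fell in every combined mouse, from 13.25, 12.53, 12.90, 12.66 and 12.46 to 11.06, 10.17, 10.93, 10.82 and 12.37 (-1.69 ± 0.28, adjusted p = 0.000145). Oit3, another gene of these cells, differed by -1.39 ± 0.33 (adjusted p = 0.00263). Of 14 stellate cell and matrix genes 2 rose (Pdgfrb, Tgfb1) and 2 fell (Lrat, Dcn) (2 higher and 1 lower without combined mice 2 and 4, 0 and 0 with the covariate), with summed signals of 79850 to 98760 against 52550 to 77880. Lrat, which stores vitamin A in stellate cells, differed by -1.64 ± 0.39 (adjusted p = 0.00286). Markers of neutrophils and of T and NK cells had 0 calls among 5 tested genes each, with summed signals of 221.2 to 312.6 against 195.9 to 265.2 and of 190.6 to 270.4 against 197.7 to 313.1. No B cell marker passed the filter on dim genes, and all 5 with a probe set lay below the negative controls. Of 5 cholangiocyte markers 1 fell, of 4 erythroid and 2 pancreatic markers 0 were called, and of 3 adipocyte markers 2 fell (Retn, Fabp4; none in either alternative). The part of cell makeup in the gene differences below was not tested. Clec4f (-1.01, adjusted p = 0.0839) and Oit3 (-0.76, 0.0556) did not pass without combined mice 2 and 4. Vsig4 (-1.29) passed without combined mice 2 and 4 with a difference changed by over 1.5 times. Vsig4 (-0.82, adjusted p = 0.277), Adgre1 (-0.71, 0.213), Clec4f (-0.44, 0.533), Oit3 (-0.40, 0.395) and Lrat (-1.0, 0.192) did not pass with the negative-control covariate. Clec4g (-1.0) passed with the negative-control covariate with a difference changed by over 1.5 times.

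Genes of fat synthesis from sugar showed the highest share of falls. Among 19 lipogenic genes tested, 14 fell, none rose and 5 missed the threshold, with a median of -1.26 against 0.01 over all tested genes. A split of 14 to 0 was also counted without combined mice 2 and 4, and 9 fell with the covariate (median -1.23). Acaca, the acetyl-CoA carboxylase that makes malonyl-CoA, was at 13.35, 13.71, 13.55, 13.73 and 15.19 in filtered air. It was at 10.99, 11.25, 10.31, 10.29 and 11.79 in the combined group. No values overlapped, the lowest filtered-air mouse lying above the highest combined mouse, and the fall was 7.89-fold (-2.98 ± 0.37, adjusted p = 1.4e-05). Elovl6, which lengthens palmitate to stearate, was at 17.19, 17.56, 17.33, 17.01 and 17.91 in filtered air and at 15.12, 14.60, 13.78, 12.94 and 16.18 with both treatments. All 5 combined mice were below the filtered-air range, with mouse 4 lowest and mouse 5 nearest (-2.88 ± 0.40, adjusted p = 3.59e-05; 7.33-fold). Fasn, the fatty acid synthase, was at 15.30, 15.15, 15.51, 15.32 and 15.87 in filtered air and 13.17, 14.09, 12.43, 12.87 and 12.99 with both treatments. Combined mouse 2 was the highest of its group, yet below every filtered-air mouse (-2.32 ± 0.45, adjusted p = 0.000541). Acly, which makes cytosolic acetyl-CoA from citrate, differed by -2.17 ± 0.40 (adjusted p = 0.000353), and Aacs, which activates acetoacetate for lipid synthesis, by -2.28 ± 0.20 (adjusted p = 5.56e-07).

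The regulators Thrsp and Mlxipl fell as well. Thrsp, a lipogenic protein of the nucleus and cytosol, differed by -1.26 ± 0.20 (adjusted p = 0.000125), and its values of 16.27, 16.27, 15.98, 15.85 and 16.21 in combined mice lay below all of 17.62, 17.30, 17.40, 17.16 and 17.43 in filtered air. Mlxipl, which encodes ChREBP, differed by -0.80 ± 0.25 (adjusted p = 0.0162), with combined mouse 2 at 12.54 inside the filtered-air range. Scd1, the stearoyl-CoA desaturase, was bright in every mouse and did not pass (-0.30 ± 0.14, adjusted p = 0.109). Mlxipl (-0.96, adjusted p = 0.0661) did not pass with the negative-control covariate. The RefSeq window around the Fasn start site (GRCm38.p6, chr11:120824498-120824797, minus strand) is shown because Fasn is the central enzyme of this group. Capitals mark CCAAT, the core letters of the box bound by NF-Y, on either strand.

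Fasn promoter: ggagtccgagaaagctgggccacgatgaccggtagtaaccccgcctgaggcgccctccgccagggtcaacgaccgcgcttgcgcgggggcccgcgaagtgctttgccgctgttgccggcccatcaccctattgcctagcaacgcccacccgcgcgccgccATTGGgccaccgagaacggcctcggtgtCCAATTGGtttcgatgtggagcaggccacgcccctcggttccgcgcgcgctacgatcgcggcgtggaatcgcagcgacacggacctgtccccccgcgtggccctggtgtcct

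This window holds 3 matches, of which the last 2 overlap each other as CCAATTGG. Of 32817 such windows of 300 bases, 37.4% hold at least 1 match and 3.37% at least 3. A match describes letters and no binding was measured.

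**Figure D3:**
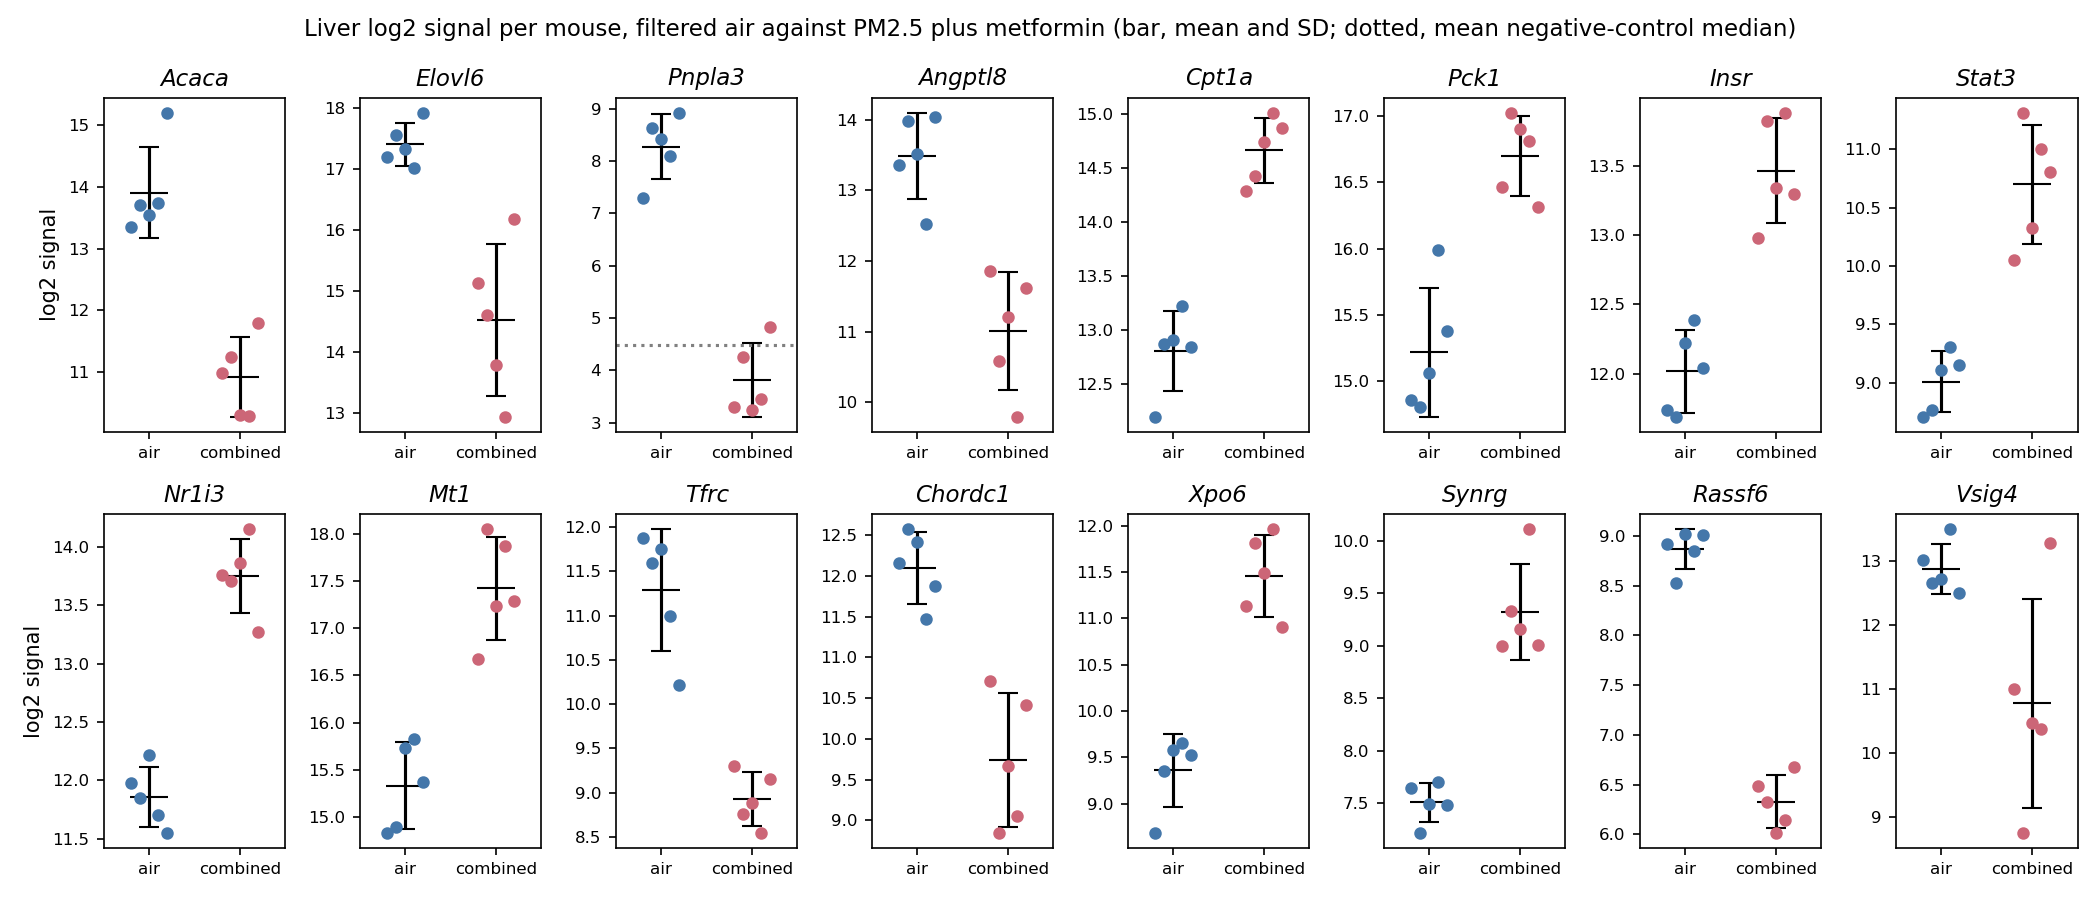
Log2 signal (y axis) of 16 described genes in each filtered-air and combined mouse (x axis); points are mice 1 to 5 from left to right, bars are the mean and SD, and the dotted line in the Pnpla3 panel is the mean negative-control median of 4.486. The groups do not overlap in 15 of the panels, and in the Vsig4 panel combined mouse 5 lies among the filtered-air mice.

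Of 21 tested genes of lipid droplets and triglycerides 2 rose, 4 fell and 15 did not pass (3 higher and 2 lower without combined mice 2 and 4, 1 and 2 with the covariate), a share of calls below the 34.9% of all tested genes. Pnpla3, a lipid droplet protein that follows carbohydrate feeding, was at 7.30, 8.63, 8.43, 8.11 and 8.92 in filtered air. It was at 3.30, 4.26, 3.23, 3.46 and 4.83 in the combined group. Of the combined values 4 lie under 4.486, the mean of the negative-control medians, so the groups are apart but the size of the fall is not measured (-4.46 ± 0.43, adjusted p = 1.66e-06). Plin4, a lipid droplet coat protein, had the largest rise of the named genes, from 4.14, 4.58, 4.25, 5.36 and 4.47 to 6.49, 7.29, 8.10, 8.74 and 7.64. Its filtered-air values sit near the negative-control median, and the arrays give no measure of how far it rose (3.09 ± 0.37, adjusted p = 1.08e-05). Gpam, the mitochondrial enzyme that starts triglyceride assembly, fell (-1.03 ± 0.23, adjusted p = 0.00149). Agpat2, which acts later in the same route, fell too, as did Mogat1. The 2 falls left in each alternative were Gpam and Pnpla3, so those of Agpat2 and Mogat1 passed in neither. Pnpla2, the lipase that opens triglyceride breakdown, rose (1.48 ± 0.31, adjusted p = 0.00091).

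Cholesterol synthesis had 5 falls and 0 rises among 19 tested genes (0 higher and 1 lower without combined mice 2 and 4, 0 and 0 with the covariate), with a median of -0.76 (then -0.26 and -0.12). The count depended on single mice: it was 1 without combined mouse 4, 2 without combined mouse 2 or filtered-air mouse 5, and 9 without combined mouse 1. Mvd, an enzyme of the mevalonate pathway, was at 8.03, 8.42, 9.15, 8.68 and 8.86 in filtered air and at 7.43, 5.57, 6.69, 5.30 and 6.90 in the combined group. Combined mice 2 and 4 were lowest, and the other 3 also lay below filtered air (-2.25 ± 0.43, adjusted p = 0.000459). Insig1, which holds the SREBP complex in the endoplasmic reticulum, was at 14.99, 14.92, 14.62, 12.76 and 14.46 against 15.85, 15.84, 16, 15.94 and 16.10, with mouse 4 far below the rest (-1.60 ± 0.49, adjusted p = 0.0142). Msmo1 and Sc5d, late enzymes of sterol synthesis, differed by -1.64 ± 0.56 and -0.54 ± 0.19 (adjusted p = 0.0264 and 0.0301). Their per-mouse values split the combined group: Msmo1 was 9.28 and 9.41 in mice 2 and 4 and 10.88 to 11.61 in the others. The calls of both were lost without filtered-air mouse 5 (adjusted p = 0.0613 and 0.0632), without combined mouse 2 (0.0815 and 0.0616) or without combined mouse 4 (0.0813 and 0.0845), and that of Insig1 without combined mouse 4 (-1.20, adjusted p = 0.0547). Insig1 (-1.26, adjusted p = 0.083), Msmo1 (-0.87, 0.301) and Sc5d (-0.40, 0.198) did not pass without combined mice 2 and 4. Pnpla2 (0.94, adjusted p = 0.105), Mvd (-1.66, 0.0557), Insig1 (-1.32, 0.2), Msmo1 (-0.56, 0.627) and Sc5d (-0.31, 0.433) did not pass with the negative-control covariate.

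Angptl8, a liver hormone raised by feeding and insulin that steers lipoprotein lipase, was at 13.36, 13.98, 13.52, 12.53 and 14.04 in filtered air. It was at 11.86, 10.58, 11.20, 9.80 and 11.62 in the combined group. The ranges did not meet, and the fall was 5.56-fold (-2.48 ± 0.39, adjusted p = 9.36e-05). Angptl4, which inhibits that lipase and responds to fasting, rose from 10.93, 12.44, 12.47, 12.24 and 12.58 to 13.91, 12.41, 14.48, 14.20 and 13.64. Combined mouse 2 lay within the filtered-air range and the other 4 above it (1.60 ± 0.38, adjusted p = 0.00275). Of the 21 tested genes of lipoproteins and lipases 6 rose and 2 fell (6 higher and 2 lower without combined mice 2 and 4, 3 and 1 with the covariate), a share of calls close to the 34.9% of all tested genes. The rises included Lrp1, an endocytic receptor for remnant particles (1.66 ± 0.24, adjusted p = 5.57e-05), and Scarb1, the receptor for high-density lipoprotein (1.28 ± 0.19, adjusted p = 5.45e-05). Gpihbp1, which carries lipoprotein lipase on endothelium, was the other fall.

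Fatty acid oxidation genes had 8 rises and 0 falls among 31 tested, while their median was 0.04 and 16 of the 31 lay above 0. Their share of calls in either direction was below the 34.9% of all tested genes. As all their calls were rises, their share of rises was above the 18.7% of all tested genes. Cpt1a, the carrier that admits long-chain fatty acids to mitochondria, was at 12.20, 12.87, 12.91, 13.22 and 12.84 in filtered air and at 14.29, 14.43, 14.74, 15.01 and 14.87 in the combined group. The lowest combined mouse was over 1 log2 unit above the highest filtered-air mouse (1.86 ± 0.23, adjusted p = 1.32e-05; 3.63-fold). Acadl, a mitochondrial dehydrogenase of long-chain acyl-CoA, rose by 0.78 ± 0.16, and Slc22a5, the carnitine transporter, by 1.43 ± 0.31. Fgf21, a fasting hormone of the liver, was at 4.97, 7.05, 4.56, 5.13 and 4.8 in filtered air, where mouse 2 stood alone, and at 7.62, 5.89, 7.39, 6.15 and 8.76 with both treatments. The groups overlapped through that mouse and through combined mice 2 and 4 (1.86 ± 0.51, adjusted p = 0.00788). Ppara itself, Cpt2 and Creb3l3 were among the 8 rises. Without combined mice 2 and 4 the split was again 8 to 0, and with the covariate 7 to 0 (median 0.27).

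Fatty acid carriers moved in both directions. Of 12 tested genes 5 fell and 3 rose (2 higher and 3 lower without combined mice 2 and 4, 1 and 1 with the covariate). Fabp5, a fatty acid binding protein of many tissues, was at 8.30, 9.56, 9.40, 9.74 and 11.06 in filtered air and 6.53, 5.57, 5.89, 5.97 and 8.60 with both treatments, with combined mouse 5 the only one inside the filtered-air range (-3.10 ± 0.51, adjusted p = 0.000149). Fabp7 differed by -2.30 ± 0.52 (adjusted p = 0.00178), again with mouse 5 apart at 11.03. Fabp2, Fabp4 and the acyl-CoA synthetase Acsl4 fell too. The 3 rises were fatty acid transport proteins, Slc27a1, Slc27a2 and Slc27a4, with Slc27a1 differing by 1.24 ± 0.23 (adjusted p = 0.000358). Fabp7 (-1.47) passed without combined mice 2 and 4 with a difference changed by over 1.5 times. Acadl (0.57, adjusted p = 0.0729) and Fabp7 (-0.92, 0.266) did not pass with the negative-control covariate. Lrp1 (0.99) passed with the negative-control covariate with a difference changed by over 1.5 times.

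Glucose production genes rose in 8 of 19 and fell in 1, with a median of 0.30. Pck1, which makes phosphoenolpyruvate for glucose synthesis, was at 14.86, 14.81, 15.06, 15.99 and 15.38 in filtered air. It was at 16.46, 17.02, 16.90, 16.81 and 16.31 in the combined group. No combined mouse overlapped with filtered air, where mouse 4 was nearest (1.48 ± 0.20, adjusted p = 3.24e-05; 2.79-fold). Foxo1, the transcription factor through which insulin represses this program, was at 6.79, 6.93, 7.95, 7.71 and 8.15 in filtered air and 8.67, 9.21, 9.18, 9.32 and 8.55 with both treatments, also without overlap (1.48 ± 0.22, adjusted p = 5.89e-05). The alanine aminotransferases Gpt and Gpt2, which feed amino acid carbon into the pathway, rose by 1.66 ± 0.28 and 0.95 ± 0.15. G6pc, the last enzyme of glucose release, did not pass (-0.41 ± 0.20, adjusted p = 0.125), and Slc37a4, its partner transporter, was the 1 fall. With the covariate 4 of the 8 rises passed and no member fell.

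Glucose use fell in part: of 18 genes of glycolysis and glycogen 6 fell and 1 rose (0 higher and 4 lower without combined mice 2 and 4, 0 and 2 with the covariate), with a median of -0.21. The rise, Pdk2, no longer passed when filtered-air mouse 1, 2 or 4 or combined mouse 3 or 4 was left out. Khk, which phosphorylates fructose, was at 17.70, 17.74, 17.64, 17.70 and 17.99 in filtered air and 16.64, 15.88, 16.54, 15.33 and 17.28 with both treatments. Every combined mouse was lower, from mouse 4 at the bottom to mouse 5 at the top (-1.42 ± 0.23, adjusted p = 0.000125). Ppp1r3c, a glycogen-targeting phosphatase subunit, was at 14.39, 14.32, 14.54, 13.84 and 14.30 in filtered air and 12.11, 10.51, 12.30, 11.57 and 14.17 with both treatments. Only combined mouse 5 reached the filtered-air range (-2.15 ± 0.40, adjusted p = 0.000412). Pklr, the liver pyruvate kinase and a classical ChREBP target, differed by -1.68 ± 0.36 (adjusted p = 0.00127), and Ugp2, which makes UDP-glucose, by -0.92 ± 0.15 (adjusted p = 0.000127). Pdk4, which brakes pyruvate oxidation, did not pass (-1.0 ± 0.41, adjusted p = 0.0591). Khk (-0.93) and Ppp1r3c (-1.42) passed without combined mice 2 and 4 with a difference changed by over 1.5 times. Ppp1r3c (-1.03, adjusted p = 0.0935) and Pklr (-1.27, 0.0863) did not pass with the negative-control covariate. Gpt (0.88) and Khk (-0.86) passed with the negative-control covariate with a difference changed by over 1.5 times.

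Genes of insulin and growth hormone signaling rose in 9 of 19 and fell in 1 (Ghr, the growth hormone receptor), with a median of 0.68. The insulin receptor Insr was at 11.74, 11.69, 12.22, 12.39 and 12.04 in filtered air. It was at 12.98, 13.82, 13.34, 13.88 and 13.30 with both treatments. The groups were apart in every mouse (1.45 ± 0.17, adjusted p = 1.13e-05; 2.73-fold). Ptprf, a receptor phosphatase that acts on the insulin receptor, was at 8.56, 9.07, 9.57, 9.66 and 9.72 in filtered air and 11.54, 11.25, 11, 11.57 and 10.19 with both treatments. Combined mouse 5 was lowest of its group and still above filtered air (1.80 ± 0.25, adjusted p = 3.99e-05). Stat5b, which carries growth hormone signals, rose by 0.84 ± 0.13, and Grb14, an adaptor that blocks the insulin receptor, by 1.02 ± 0.21. Irs1, Irs2, Pik3r1, Foxa2 and Igfals were the other rises. The fall of Ghr no longer passed when filtered-air mouse 1, 3 or 4 or combined mouse 2 or 4 was left out. The list had 8 rises and 0 falls without combined mice 2 and 4, and 8 and 0 with the covariate, of which 6 were called in all 3 fits.

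Of 16 genes of metformin transport and AMPK 7 rose and 1 fell. They included Stk11, the kinase LKB1 that activates AMPK (0.90 ± 0.17, adjusted p = 0.000418), and Slc47a1, a transporter that exports metformin into bile (0.51 ± 0.13, adjusted p = 0.00449). Prkaa1 and Prkaa2, the catalytic subunits of AMPK, did not pass (-0.57 ± 0.23 and -0.14 ± 0.19, adjusted p = 0.06 and 0.613). Without combined mice 2 and 4 the list had 5 rises and 0 falls, and with the covariate 0 of either. Grb14 (0.71, adjusted p = 0.0899), Stk11 (0.63, 0.0562) and Slc47a1 (0.54, 0.0514) did not pass with the negative-control covariate.

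Glucocorticoid targets held the highest share of rises, 10 of 18 with 0 falls and a median of 1.42. Without combined mice 2 and 4, 9 rose (median 1.15), and with the covariate 7 rose (median 1.10). Fkbp5, a chaperone of the glucocorticoid receptor, was at 10.62, 10.45, 10.88, 10.99 and 10.62 in filtered air and at 12.02, 12.62, 12.51, 12.74 and 11.65 in the combined group. The values did not overlap (1.59 ± 0.28, adjusted p = 0.000266). Klf9, a transcription factor induced through that receptor, was at 10.84, 11.08, 11.71, 12.12 and 11.88 in filtered air and 12.57, 12.71, 13.14, 13.51 and 12.54 with both treatments, also apart (1.37 ± 0.26, adjusted p = 0.000395). Pck1, Angptl4, Per1, Cdkn1a, Lcn2, Zbtb16 and the metallothioneins Mt1 and Mt2 complete the 10, so the list shares members with those of other paragraphs.

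Metal-binding genes were among the largest rises. Mt1, a metallothionein that binds zinc and copper and answers to metals and glucocorticoids, was at 14.83, 14.89, 15.73, 15.83 and 15.37 in filtered air. It was at 16.67, 18.05, 17.24, 17.87 and 17.29 in the combined group, above filtered air in every mouse (2.10 ± 0.36, adjusted p = 0.000191; 4.28-fold). Mt2 went from 13.73, 13.29, 14.98, 15.86 and 15.16 to 16.45, 18.26, 17.50, 17.64 and 17.30. Its filtered-air mice differed widely, from 13.29 in mouse 2 to 15.86 in mouse 4, and all combined mice were higher (2.83 ± 0.60, adjusted p = 0.00109; 7.09-fold). Of 22 genes of metal handling 7 rose and 4 fell (7 higher and 1 lower without combined mice 2 and 4, 4 and 1 with the covariate). Tfrc, the receptor that takes up transferrin-bound iron, was at 11.88, 11.59, 11.75, 11 and 10.22 in filtered air and 9.30, 8.76, 8.88, 8.55 and 9.16 with both treatments. The combined mice lay within a narrow band below all filtered-air mice (-2.36 ± 0.29, adjusted p = 1.19e-05). Alas1, the first enzyme of heme synthesis, rose (1.38 ± 0.25, adjusted p = 0.000325), with combined values of 15.68, 15.76, 15.71, 15.59 and 15.44. The windows around the Mt1 and Mt2 starts (RefSeq, GRCm38.p6, plus strand; chr8:94178839-94179138 and chr8:94172368-94172667) are shown because both genes rose together. Capitals mark TGCACNC or TGCGCNC on either strand, the core letters of metal response elements.

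Mt1 promoter: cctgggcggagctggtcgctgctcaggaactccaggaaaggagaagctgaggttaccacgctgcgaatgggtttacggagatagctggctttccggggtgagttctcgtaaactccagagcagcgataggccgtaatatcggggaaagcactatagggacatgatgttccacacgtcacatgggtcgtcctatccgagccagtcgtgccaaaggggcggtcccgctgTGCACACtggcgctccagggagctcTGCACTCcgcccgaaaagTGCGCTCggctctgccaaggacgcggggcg

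Mt2 promoter: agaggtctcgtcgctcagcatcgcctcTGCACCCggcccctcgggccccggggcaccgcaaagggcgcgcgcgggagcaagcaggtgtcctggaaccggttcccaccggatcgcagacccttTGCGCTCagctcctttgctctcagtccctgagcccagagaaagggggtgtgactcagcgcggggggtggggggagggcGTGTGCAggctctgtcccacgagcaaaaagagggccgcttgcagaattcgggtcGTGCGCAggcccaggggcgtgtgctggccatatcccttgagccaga

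The Mt1 window holds 3 matches and the Mt2 window 4, none of them overlapping another. Among all 32817 windows 25.7% hold at least 1, 1.97% at least 3 and 0.518% at least 4.

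Cdkn1a, whose product p21 halts the cell cycle, was at 4.93, 7.91, 7.08, 6.50 and 6.28 in filtered air and at 7.70, 6.43, 10.40, 10.54 and 10.53 in the combined group. Combined mice 3, 4 and 5 were above 10, while mice 1 and 2 lay within the filtered-air range (2.58 ± 0.91, adjusted p = 0.0313). It no longer passed when filtered-air mouse 1 (2.18, adjusted p = 0.0894) or 5 (2.52, 0.0572) was left out, nor without combined mouse 3 (2.26, 0.0787), mouse 4 (2.23, 0.0871) or mouse 5 (2.23, 0.0717). Nor did it pass with eBayes trend and robust options. Ccng1, another p53 target, fell (-1.10 ± 0.22, adjusted p = 0.000643), and 1 of 13 genes of this list rose and 2 fell (1 higher and 2 lower without combined mice 2 and 4, 0 and 1 with the covariate). Of 18 genes of DNA replication and the cell cycle 8 fell and 0 rose (0 higher and 4 lower without combined mice 2 and 4, 0 and 2 with the covariate), with a median of -0.57 (then -0.45 and -0.28). The count was 4 without filtered-air mouse 2 and 5 without combined mouse 2 or 3, and most of these genes were dim, with a median signal of 5.193. Tyms, the thymidylate synthase, was at 9.13, 9.14, 9.36, 8.84 and 9.07 in filtered air and 8.41, 8.28, 8.34, 7.94 and 8.17 with both treatments, without overlap (-0.88 ± 0.15, adjusted p = 0.000152). Mcm6, part of the replicative helicase, differed by -0.83 ± 0.19 (adjusted p = 0.0018). Ccng1 (-0.71) passed without combined mice 2 and 4 with a difference changed by over 1.5 times. Cdkn1a (3.19, adjusted p = 0.0958) and Ccng1 (-0.57, 0.117) did not pass with the negative-control covariate.

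Circadian genes rose in 8 of 23 and fell in 0, with a median of 0.57. Leaving out combined mice 2 and 4 left 3 rises and the covariate left 0. Ciart, a repressor of the clock, was at 5.55, 4.50, 5.37, 6.46 and 6.31 in filtered air. It was at 6.90, 10.41, 8.00, 8.55 and 5.66 in the combined group, highest in mouse 2, while mouse 5 lay within filtered air (2.26 ± 0.61, adjusted p = 0.00629). Usp2, a deubiquitinase driven by the clock, was at 3.65, 3.85, 4.61, 4.02 and 4.48 in filtered air and 5.78, 7.97, 5.80, 7.21 and 4.84 with both treatments. Mice 2 and 4 were again highest, and the filtered-air mean of 4.123 is below the negative-control median (2.20 ± 0.42, adjusted p = 0.000447). Per1, a core clock gene that also answers to glucocorticoids, differed by 1.65 ± 0.43 (adjusted p = 0.00502), with mouse 2 at 8.39 and the other 4 between 5.64 and 6.24. Nr1d1, the repressor REV-ERB alpha, differed by 0.83 ± 0.25, Dbp, an output factor, by 0.92 ± 0.32, and its relative Hlf by 0.81 ± 0.21 (adjusted p = 0.012, 0.0305 and 0.00447). Dbp no longer passed when filtered-air mouse 1 or 2 was left out (adjusted p = 0.0509 and 0.0981) or without combined mouse 2 or 4 (0.109 and 0.0746). Ciart (1.21, adjusted p = 0.0978), Dbp (0.43, 0.339) and Nr1d1 (0.58, 0.136) did not pass without combined mice 2 and 4. Usp2 (1.35) and Per1 (1.08) passed without combined mice 2 and 4 with a difference changed by over 1.5 times. Ciart (0.58, adjusted p = 0.562), Usp2 (0.82, 0.0942), Per1 (0.77, 0.331), Dbp (0.16, 0.805) and Nr1d1 (0.58, 0.252) did not pass with the negative-control covariate. Hlf (0.65, adjusted p = 0.13) did not pass with the negative-control covariate. The hour of death is not among the labels used here.

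The Ciart window (RefSeq, GRCm38.p6, chr3:95882179-95882478, minus strand) is printed because of the E-boxes in it. Capitals mark CACGTG, the E-box that reads the same on both strands.

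Ciart promoter: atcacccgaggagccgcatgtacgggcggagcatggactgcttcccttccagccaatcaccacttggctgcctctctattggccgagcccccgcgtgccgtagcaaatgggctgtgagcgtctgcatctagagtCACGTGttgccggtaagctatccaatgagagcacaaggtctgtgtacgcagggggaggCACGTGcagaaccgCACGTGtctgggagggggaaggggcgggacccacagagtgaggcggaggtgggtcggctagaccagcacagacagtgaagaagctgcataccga

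It holds 3 matches, none overlapping. At least 1 is held by 7.15% of the 32817 windows and at least 3 by 0.0884%. Because the Ciart window was chosen for its matches, these shares test nothing about Ciart.

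Immediate early genes, which respond within minutes to many stimuli, rose in 4 of 17 and fell in 0 (4 higher and 0 lower without combined mice 2 and 4, 2 and 0 with the covariate). Their share of calls in either direction lay below the 34.9% of all tested genes, while their share of rises lay above the 18.7%. Egr1, a zinc finger factor of this class, was at 5.58, 5.69, 6.01, 5.32 and 6.36 in filtered air and 7.23, 5.93, 7.75, 7.71 and 10.79 with both treatments, with mouse 5 far above and mouse 2 within filtered air (2.09 ± 0.60, adjusted p = 0.00947). Without combined mouse 5 the difference was 1.36 (adjusted p = 0.0169). Jun, a subunit of AP-1, rose (1.33 ± 0.38, adjusted p = 0.0104), as did Ier2 and Myc. Egr1 (3.57) passed with the negative-control covariate with a difference changed by over 1.5 times.

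Cytosolic chaperones fell in part. Of 12 tested heat shock genes 6 fell and 0 rose, with a median of -0.51 (0 higher and 4 lower without combined mice 2 and 4, 0 and 1 with the covariate). Chordc1, a partner of HSP90, was at 12.16, 12.57, 12.42, 11.47 and 11.88 in filtered air and at 10.71, 8.85, 9.67, 9.05 and 10.42 in the combined group. The ranges stood apart, with mice 2 and 4 lowest (-2.36 ± 0.37, adjusted p = 8.75e-05; 5.14-fold). Hsp90aa1, the inducible HSP90, differed by -1.70 ± 0.35 (adjusted p = 0.000954). Chaperones of the endoplasmic reticulum went both ways, 4 rising and 4 falling among 21 (3 higher and 0 lower without combined mice 2 and 4, 1 and 0 with the covariate), and the falls were 2 without combined mouse 4. The share of calls among these endoplasmic reticulum genes was close to the 34.9% of all tested genes. Herpud1, which serves the degradation of misfolded proteins in the endoplasmic reticulum, rose (1.00 ± 0.17, adjusted p = 0.000196). P4hb, a disulfide isomerase, rose (1.04 ± 0.20, adjusted p = 0.000491), while Hspa5, Hsp90b1, Pdia6 and Xbp1 were the falls. The integrated stress response had 3 rises (Fgf21, Shmt2, Slc3a2) and 2 falls (Atf4, Nupr1) among 15 (3 higher and 2 lower without combined mice 2 and 4, 1 and 2 with the covariate).

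Genes often studied with inhaled particles changed little as lists. Of 28 NRF2 and antioxidant genes 4 rose and 3 fell (2 higher and 1 lower without combined mice 2 and 4, 1 and 0 with the covariate), with a median of 0.06. Nqo1, a quinone reductase, was at 10.48, 10.32, 10.79, 10.33 and 10.22 in filtered air and 10.78, 10.81, 10.30, 9.50 and 10.10 with both treatments, with overlapping ranges (-0.13 ± 0.25, adjusted p = 0.724). Hmox1, which breaks down heme, was at 10.94, 10.26, 10.49, 10.94 and 10.09 in filtered air and 11.24, 10.05, 10, 10.73 and 10.98 with both treatments, also overlapping (0.05 ± 0.36, adjusted p = 0.928). Neither passed. Of 6 tested aryl hydrocarbon receptor targets 1 fell and 0 rose (1 higher and 0 lower without combined mice 2 and 4, 1 and 0 with the covariate). That gene was Tiparp (-0.40 ± 0.14, adjusted p = 0.0307), which no longer passed once filtered-air mouse 2, 3 or 5 was left out (adjusted p = 0.0612, 0.0566 and 0.086) or combined mouse 2 or 3 (0.106 and 0.0569). Cyp1a2, a P450 that this receptor drives, was at 14.85, 14.52, 14.85, 15.69 and 14.74 in the combined group against 14.61, 14.16, 14.53, 14.11 and 14.43 and did not pass (0.56 ± 0.34, adjusted p = 0.217). Tiparp (-0.32, adjusted p = 0.126) did not pass without combined mice 2 and 4. Hsp90aa1 (-1.06, adjusted p = 0.113), P4hb (0.45, 0.105) and Tiparp (-0.21, 0.481) did not pass with the negative-control covariate.

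Among drug metabolism genes the nuclear receptors Nr1i3, Nr1i2 and Rxra rose and Nr0b2, the repressor SHP, fell. Nr1i3, the constitutive androstane receptor, was at 11.98, 11.85, 12.22, 11.70 and 11.55 in filtered air. It was at 13.76, 13.71, 13.86, 14.15 and 13.27 in the combined group. Every combined mouse lay more than 1 log2 unit above every filtered-air mouse (1.89 ± 0.20, adjusted p = 3.23e-06; 3.7-fold). Nr1i2, the pregnane X receptor, was at 10.03, 9.92, 10.25, 9.91 and 9.76 in filtered air and 10.56, 10.79, 10.83, 10.60 and 10.64 with both treatments, without overlap (0.71 ± 0.14, adjusted p = 0.000549). Of 29 genes of cytochrome P450 enzymes and their receptors 8 rose and 4 fell (7 higher and 2 lower without combined mice 2 and 4, 4 and 0 with the covariate), and the falls were 1 without filtered-air mouse 1 and 2 without filtered-air mouse 3 or combined mouse 2 or 3. Cyp2a5 rose by 0.93 ± 0.16 and Cyp2d22 by 1.36 ± 0.24, and outside the list Cyp2j9 rose (2.05 ± 0.33, adjusted p = 0.000118) and Cyp2c40 fell (-2.44 ± 0.53, adjusted p = 0.00139). P450 genes of these mouse families have near copies, so a probe set may read more than 1 of them. Conjugating enzymes, which attach sugar or sulfate to drugs and hormones, fell in 6 of 16 and rose in 0 (0 higher and 2 lower without combined mice 2 and 4, 0 and 1 with the covariate), and the falls were 3 without filtered-air mouse 1. Abcc3, which sends conjugates to the blood, was at 13.89, 13.80, 13.88, 14.30 and 13.41 in filtered air and 15.20, 15.26, 15.60, 15.29 and 15.20 with both treatments (1.45 ± 0.17, adjusted p = 8.96e-06). The combined mice lay between 15.20 and 15.60, all above filtered air. Abcb4, which secretes phospholipid into bile, rose (1.08 ± 0.16, adjusted p = 5.58e-05). Cyp7a1, the rate-limiting enzyme of bile acid synthesis, did not pass (0.81 ± 0.38, adjusted p = 0.1), and 4 of 21 bile acid genes rose and 3 fell (4 higher and 1 lower without combined mice 2 and 4, 2 and 0 with the covariate). For the bile acid genes the share of calls was close to the 34.9% of all tested genes. Cyp2c40 (-1.42, adjusted p = 0.154) did not pass with the negative-control covariate.

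Acute-phase genes rose in 7 of 23 and fell in 2 (4 higher and 1 lower without combined mice 2 and 4, 3 and 0 with the covariate), with a median of 0.51. This median was 0.16 without combined mice 2 and 4, in which the list stood highest, 1.28 and 1.66 above the filtered-air mean against 0.19 to 0.59 in the other 3. Stat3, which carries interleukin-6 signals, was at 8.71, 8.77, 9.11, 9.31 and 9.15 in filtered air and at 10.05, 11.31, 10.33, 11 and 10.81 in the combined group. The groups did not overlap (1.69 ± 0.21, adjusted p = 1.16e-05; 3.23-fold). Il6ra, the receptor for that cytokine, was at 6.61, 6.52, 7.21, 7.47 and 7.29 in filtered air and 8.70, 9.17, 9.71, 9.0 and 7.97 with both treatments, also without overlap (1.89 ± 0.29, adjusted p = 8.5e-05). Itih4, a secreted acute-phase protein, was at 14.89, 14.72, 14.90, 16.17 and 14.78, with mouse 4 apart, and at 16.44, 17.43, 16.64, 17.73 and 16.34 (1.82 ± 0.29, adjusted p = 0.000114). Lrg1, a secreted glycoprotein of this response, was at 9.92, 9.02, 9.57, 10.89 and 9.04 in filtered air and 10.59, 13.36, 12.16, 13.78 and 11.97 with both treatments. Combined mice 4 and 2 were highest and mouse 1 lay within filtered air (2.69 ± 0.49, adjusted p = 0.000339). Lcn2, a siderophore-binding protein, differed by 2.07 ± 0.56 (adjusted p = 0.00701). Saa1, serum amyloid A, did not pass: its combined values ran from 10.11 to 15.30, with mice 4 and 2 at 15.30 and 14.71 (1.64 ± 0.93, adjusted p = 0.182). Without filtered-air mouse 4, which was high for Saa1, Lcn2 and Itih4, 11 members rose, and 1 member in place of 2 fell without filtered-air mouse 1, 3 or 4 or combined mouse 2, 3 or 4.

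Inflammatory and interferon genes did not rise as groups. Of 16 cytokine and NF-kappaB genes 2 rose and 3 fell (falls were 5 without combined mouse 5 and 1 without combined mouse 2 or 4 or filtered-air mouse 2 or 3; 1 higher and 1 lower without combined mice 2 and 4 or with the covariate), and the list was dim, with a median signal of 6.772 against 7.81 over all tested genes. Nfkbia, the inhibitor that NF-kappaB induces, was at 8.68, 8.79, 9.15, 9.18 and 9.53 in filtered air and 10.32, 10.65, 10.31, 10.77 and 10.21 with both treatments and rose (1.39 ± 0.19, adjusted p = 2.69e-05). Birc3, an inhibitor of apoptosis that is also a target of this factor, was at 12.72, 12.70, 12.93, 13.09 and 13.06 in filtered air and 10.99, 10.58, 10.78, 9.60 and 11.29 with both treatments and fell (-2.25 ± 0.29, adjusted p = 1.85e-05). Neither gene's groups overlapped. The rises were 1 without filtered-air mouse 1, 2, 3 or 5 or combined mouse 1, 2, 4 or 5. Of 26 interferon-induced genes 5 fell and 1 rose (0 higher and 0 lower without combined mice 2 and 4, 0 and 0 with the covariate), with a median of -0.48. The list's mean stood 1.00 above filtered air in combined mouse 5 and 0.31 to 1.16 below it in the other 4. The falls were 17 without mouse 5, 1 without combined mouse 2 or 4, 2 without combined mouse 3 or filtered-air mouse 2 or 3, 3 without filtered-air mouse 4, and 0 without combined mice 2 and 4. Coagulation and complement genes, made largely by hepatocytes, rose in 12 of 27 and fell in 3 (9 higher and 2 lower without combined mice 2 and 4, 5 and 0 with the covariate), with a median of 0.21. F5, clotting factor V, was at 14.34, 14.67, 14.48, 15.09 and 14.40 in filtered air and 15.55, 15.67, 15.67, 15.43 and 15.44 with both treatments, apart in every mouse (0.95 ± 0.16, adjusted p = 0.000169), and Plg, plasminogen, rose by 0.74 ± 0.12 (adjusted p = 0.000172). Lcn2 (1.39, adjusted p = 0.106) did not pass without combined mice 2 and 4. Lrg1 (1.71, adjusted p = 0.0625) and Lcn2 (1.33, 0.244) did not pass with the negative-control covariate.

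Respiratory chain subunits fell in part. Of 36 genes of complex I, an inner membrane complex that metformin is known to inhibit, 16 fell and 3 rose, with a median of -0.29. Ndufs1, its largest subunit, was at 14.15, 14.03, 14.07, 13.90 and 14.10 in filtered air. It was at 13.50, 12.95, 13.28, 12.87 and 13.31 in the combined group, lower in every mouse (-0.87 ± 0.14, adjusted p = 0.000122). Of 38 genes of complexes II to V 16 fell and 5 rose, with a median of -0.28. Sdhd, a membrane anchor of complex II, was at 15.33, 15.26, 15.16, 15.08 and 15.29 in filtered air and 14.33, 14.22, 14.36, 14 and 14.57 with both treatments, without overlap (-0.93 ± 0.13, adjusted p = 3.83e-05), and Uqcrc2, a core subunit of complex III, fell too (-1.44 ± 0.25, adjusted p = 0.000263). Without combined mice 2 and 4 the falls were 11 and 10, and with the covariate 2 and 2. Rises of the second list came to 3 when filtered-air mouse 1, 2, 4 or 5 or combined mouse 2, 3, 4 or 5 was left out, and to 0 without combined mice 2 and 4.

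Other housekeeping groups were counted in the same way. Over all tested genes 34.9% were called, 18.7% higher and 16.2% lower. Calls among ribosomal proteins came close to the 34.9%. Those among proteasome subunits, all falls, lay below it but above the 16.2%. Cytosolic ribosomal proteins fell in 10 of 41 and rose in 4 (1 higher and 7 lower without combined mice 2 and 4, 1 and 0 with the covariate), with Rpl38 differing by -0.69 ± 0.16 (adjusted p = 0.00176). Proteasome subunits fell in 8 of 30 and rose in 0, with 4 falls without filtered-air mouse 2, 5 without filtered-air mouse 3 or 5 or combined mouse 2 or 4, 3 without both, and 0 with the covariate. Urea cycle and amino acid genes rose in 7 of 21 and fell in 2 (1 higher and 0 lower without combined mice 2 and 4, 0 and 0 with the covariate), with 3 rises without combined mouse 2 and 4 without combined mouse 4 or filtered-air mouse 2. Leaving out any filtered-air mouse, or combined mouse 3, 4 or 5, brought the falls of this list to 1. Spliceosome genes rose in 7 of 23 and fell in 2 (5 higher and 2 lower without combined mice 2 and 4, 3 and 0 with the covariate). Snrnp200, a helicase of the spliceosome, was at 8.25, 8.51, 8.17, 8.42 and 8.79 in filtered air and 9.43, 9.64, 9.45, 9.71 and 9.38 with both treatments (1.10 ± 0.16, adjusted p = 4.64e-05). Its combined mice were tightly grouped above filtered air. Prpf8, the spliceosome's central scaffold, rose as well (0.93 ± 0.16, adjusted p = 0.000171). Hepatokines, proteins the liver secretes as hormones, rose in 4 of 17 and fell in 1 (5 higher and 1 lower without combined mice 2 and 4, 2 and 1 with the covariate). Uqcrc2 (-0.93) passed without combined mice 2 and 4 with a difference changed by over 1.5 times. Uqcrc2 (-0.87, adjusted p = 0.0552) and Rpl38 (-0.51, 0.103) did not pass with the negative-control covariate.

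Several of the largest changes lay outside these groups. Xpo6, which exports actin from the nucleus, was at 8.69, 9.35, 9.58, 9.66 and 9.52 in filtered air. It was at 11.13, 11.81, 11.49, 11.96 and 10.91 with both treatments. The lowest combined mouse was more than 1 log2 unit above the highest filtered-air mouse (2.10 ± 0.20, adjusted p = 1.58e-06; 4.29-fold). Synrg, a protein of clathrin-coated vesicles, was at 7.64, 7.22, 7.50, 7.70 and 7.48 in filtered air and 9.0, 9.33, 9.16, 10.11 and 9.01 with both treatments, with mouse 4 highest (1.81 ± 0.18, adjusted p = 1.68e-06). Zfp512b, a zinc finger protein, Plxnb2, a semaphorin receptor, and Ildr2, a membrane protein linked to liver lipid content, rose by 2.27 ± 0.26, 2.04 ± 0.22 and 2.04 ± 0.25. Sardh, which degrades sarcosine in mitochondria, rose by 2.06 ± 0.27. The adjusted p of these 4 lay between 4.29e-06 and 2.21e-05.

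Among falls, Rassf6, a Ras association domain protein, was at 8.92, 8.53, 9.02, 8.85 and 9.01 in filtered air and at 6.49, 6.32, 6.02, 6.15 and 6.67 in the combined group. Both groups were narrow and did not overlap (-2.53 ± 0.21, adjusted p = 5.56e-07; 5.79-fold). Mr1, which presents vitamin B metabolites to T cells, was at 9.90, 9.90, 10.38, 10.30 and 11.24 in filtered air and 7.98, 6.34, 6.93, 6.55 and 9.87 with both treatments. Combined mouse 5 was nearest to filtered air (-2.81 ± 0.46, adjusted p = 0.000149). Aqp8, a water channel of the hepatocyte, was at 15.75, 15.95, 15.95, 15.76 and 16.23 in filtered air and 14.32, 11.53, 13.79, 12.42 and 14.73 with both treatments, lowest in mice 2 and 4 (-2.57 ± 0.48, adjusted p = 0.00038). Pdzk1ip1, a membrane-associated protein, Ly6d, a surface antigen, and Rdh11, a retinol dehydrogenase, fell with differences of -3.11 ± 0.62, -2.85 ± 0.51 and -2.37 ± 0.55. A4gnt, a glycosyltransferase, and Chrna4, an acetylcholine receptor subunit, also fell (-3.07 ± 0.35 and -2.39 ± 0.40), but their combined means of 3.165 and 4.604 are below or near the negative-control median, so the size is not measured. Anks4b, a scaffold of microvilli, fell (-1.52 ± 0.24, adjusted p = 9.73e-05). Rdh11 (-1.59, adjusted p = 0.05) did not pass without combined mice 2 and 4. Aqp8 (-1.65) passed without combined mice 2 and 4 with a difference changed by over 1.5 times. Aqp8 (-1.19, adjusted p = 0.0886), Pdzk1ip1 (-1.40, 0.141) and Rdh11 (-1.20, 0.229) did not pass with the negative-control covariate. Mr1 (-1.61) passed with the negative-control covariate with a difference changed by over 1.5 times.

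**Figure D4:**
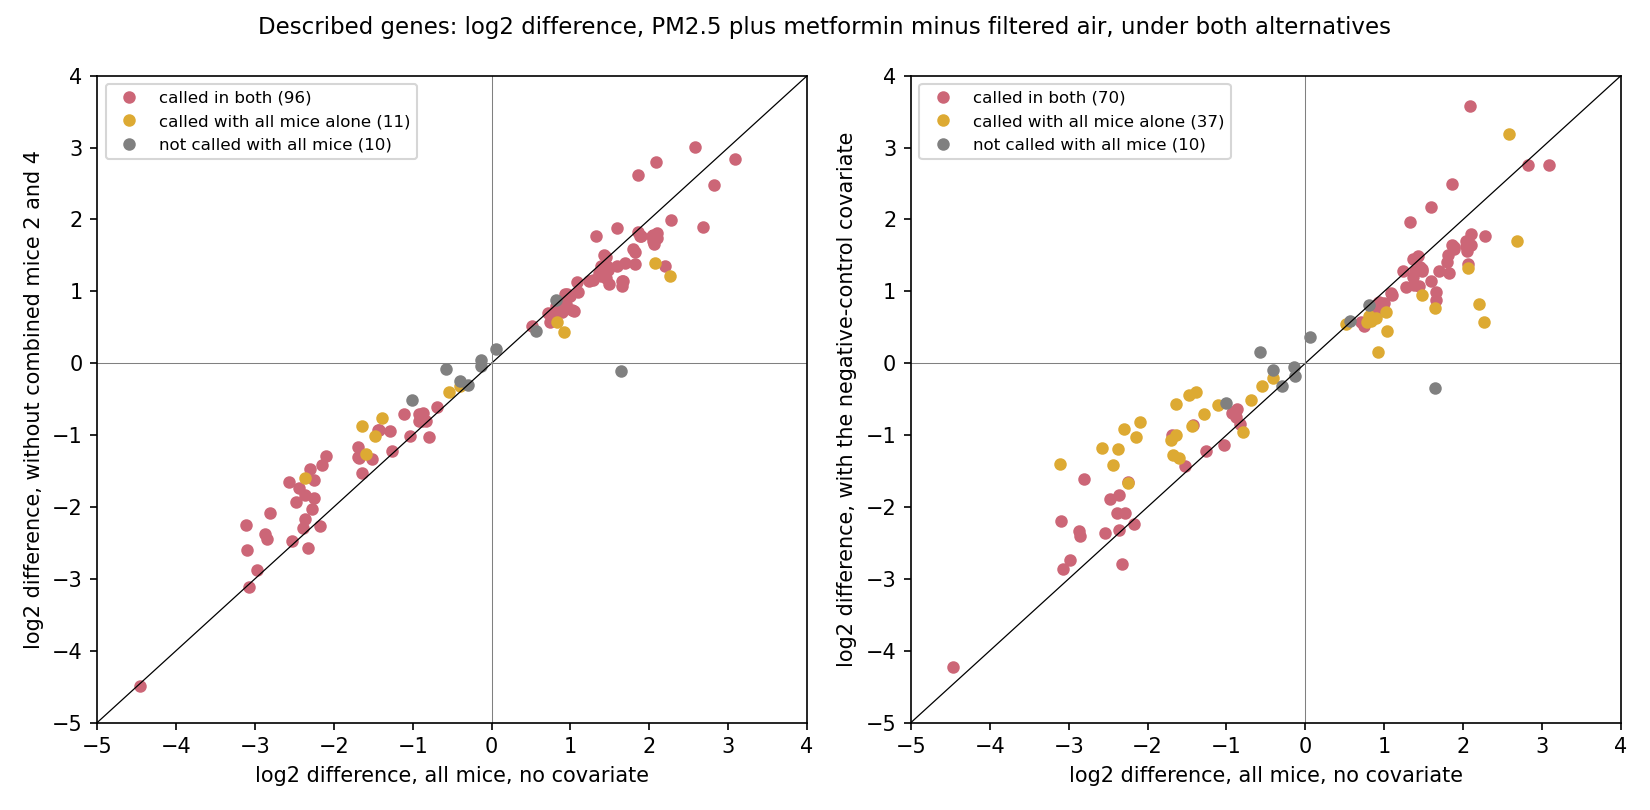
Log2 difference of the 117 described genes with all mice (x axis) against the same difference without combined mice 2 and 4 (left) or with the negative-control covariate (right); points are genes, coloured by whether the call held, and the line marks equal values. Of 107 called genes, 96 held on the left and 70 on the right. These genes were selected after their values were seen. Over all 4136 called genes, smaller shares held: 58.03% without combined mice 2 and 4 and 23.72% with the covariate.

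The joint difference was set beside the single treatments. PM2.5 alone gave 612 called genes against filtered air (5.17%) and metformin alone 373 (3.15%), so the combined group had the largest count of the 3. These counts take no account of control signal. With the covariate the combined count was 1054, and no such count was made for the single treatments. Negative-control medians were 4.361 to 4.432 in filtered air, 4.343 to 4.521 with PM2.5, 4.452 to 4.543 with metformin and 4.44 to 4.787 with both. The part of control signal in the gap between counts was not tested. All 3 comparisons use the same filtered-air mice, so their values are given side by side and no overlap is computed. Fasn fell with a log2 difference of -1.89 under PM2.5, -3.75 under metformin and -2.32 with both. Acly differed by -1.58, -3.41 and -2.17, and Aacs by -2.35, -2.22 and -2.28. For these 3 enzymes the joint fall was smaller than the sum of the single falls. Angptl4 differed by 2.46 with PM2.5, 1.94 with metformin and 1.60 with both. For Pck1 the 3 values were 1.26, 1.27 and 1.48, and for Cpt1a 1.08, 1.38 and 1.86.

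Synrg, Ptprf and Xpo6 differed from filtered air in the combined group while neither single treatment passed. This was the usual state of called genes, as 4136 were called with both treatments against 612 with PM2.5 and 373 with metformin. How many of the 4136 passed in neither was not counted. Synrg differed by 0.00 with PM2.5 (adjusted p = 0.991) and 0.08 with metformin (adjusted p = 0.85), against 1.81 with both. Ptprf differed by -0.02 and 0.09 (adjusted p = 0.979 and 0.89), against 1.80. Xpo6 differed by 0.63 and 0.24 (adjusted p = 0.0656 and 0.553), against 2.10.

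The interaction asks another question, whether the joint difference departs from the sum of the single differences. It subtracts what metformin changed in mice without PM2.5 from what it changed in mice with PM2.5, and 22 genes passed (0.186%). The 5 largest were Fasn (3.32 ± 0.64, adjusted p = 0.0301), Pnpla3 (3.19 ± 0.61, 0.0301), Angptl8 (3.02 ± 0.55, 0.0224), Acly (2.82 ± 0.57, 0.0375) and Angptl4 (-2.81 ± 0.54, 0.0301). The Pnpla3 means of both groups with metformin lie below the negative-control median, so the size of its interaction is not measured. Synrg (1.73 ± 0.25, adjusted p = 0.00378) and Ptprf (1.72 ± 0.36, adjusted p = 0.0481) also passed, whereas Xpo6 did not (1.23 ± 0.28, adjusted p = 0.0744). The count moved with single mice, from 7 without metformin mouse 3 or PM2.5 mouse 1 or 2 to 289 without combined mouse 5. It was 10 without combined mice 2 and 4 and 44 with the covariate.

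**Figure D5:**
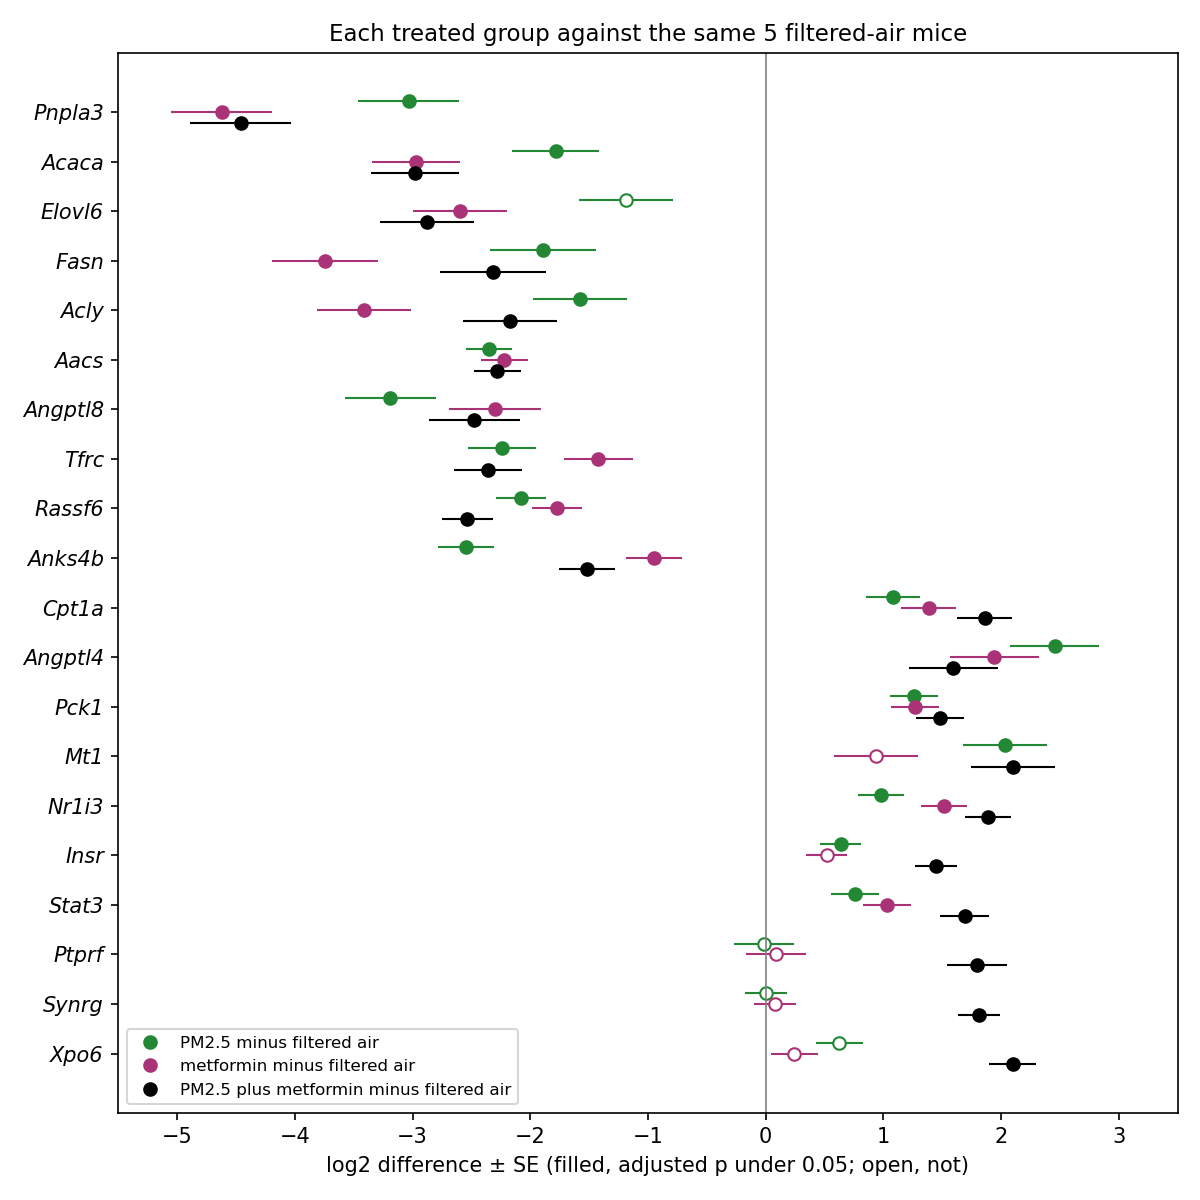
Log2 difference with its standard error (x axis) of 20 genes (y axis) in each treated group against the same 5 filtered-air mice; filled points passed an adjusted p under 0.05 and open points did not. Fasn and Acly lie lower with metformin alone than with both treatments, while Synrg and Ptprf lie near 0 in both single groups and at 1.81 and 1.80 with both.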

How the data were processed

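Liver RNA of 20 mice was measured on 1 array each. The authors deposited a log2 value for each probe set and array, and the submitters' processing notes name Affymetrix Expression Console; the summary method, its version and any scaling between arrays are not given in the sources used here. The probe set identifiers belong to a different array type from the one the series text gives, so genes were taken from the platform annotation that holds these identifiers. Of 22206 non-control probe sets 19572 name 1 gene, 0 several and 2634 none. The brightest probe set stood for each of the 55 genes with several. Genes at or below the 40th percentile of mean signal (log2 4.051) were left out, which kept 11844.

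One model of 4 group means was fitted with limma 3.58.1 in R 4.3.3 (lmFit and eBayes, 16 residual and 5.683 prior degrees of freedom), with two-sided Benjamini-Hochberg adjusted p-values over all tested genes and calls at adjusted p under 0.05. All adjusted p-values of genes come from this model. Control signals were compared by exact permutation tests. The fitting steps were tested on simulated data. Depth has no counterpart on arrays, and the number of mice limits the precision. The alternatives were other filters, scaling, probe set rules, array weights, variance options, the 2 groups alone, a negative-control covariate, and leaving out each mouse or combined mice 2 and 4.

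The comparison, the gene lists and the choice of mice 2 and 4 were made with earlier results of these data known. The naming rule took the 15 largest rises and falls, up to 4 called members of lowest p per list, the fixed genes, and the 5 largest interactions. It gave 182 genes, and the 117 described with full values were selected from them after their values were seen; further list members are named to complete a count. Promoter letters are from RefSeq (GRCm38.p6).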

Additional observations from a re-analysis of the deposited data

Results flagged for a closer look

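For the genes described and 6 control measures, 246 groups of 5 mice were screened for a single mouse far from the rest, by Dixon's critical value for 5 samples. The screen picked 15 (6.098%), 9 in filtered air and 6 in the combined group, where chance gives about 5%. In filtered air, mouse 5 stood high for Acaca (15.19, the other mice at 13.35 to 13.73) and Khk (17.99, the others at 17.64 to 17.74). Filtered-air mouse 4 stood high for Itih4 (16.17) and the macrophage gene Adgre1 (9.28) and low for Aacs (8.76). Filtered-air mouse 1 stood low for Angptl4 (10.93), Acadl (13.16) and Cyp2d22 (12.19), and mouse 2 stood high for Fgf21 (7.05, the others at 4.56 to 5.13).

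In the combined group, mouse 4 stood low for Insig1 (12.76) and high for Cyp1a2 (15.69). Mouse 2 stood low for G6pc (16.07) and high for Per1 (8.39). Mouse 3 stood high for Abcc3 (15.60) and mouse 5 for Lrat (10.73).

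The metformin difference under PM2.5 departed from the metformin difference without PM2.5 for 11 of the genes described, by the interaction of the limma model. The interaction was positive for Fasn (3.32), Pnpla3 (3.19), Angptl8 (3.02), Acly (2.82), Aacs (2.29), Anks4b (1.98), Gpam (1.77), Synrg (1.73) and Ptprf (1.72). It was negative for Angptl4 (-2.81) and Nr1i2 (-0.998). For Fasn, Acly, Aacs, Gpam and Angptl8, all lower with each single treatment, a positive value means that the joint fall was smaller than the sum of the single falls.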

How the results depend on the processing

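The count of called genes stayed between 3654 and 4224 under 9 settings: no filter, a stricter filter, quantile normalization, median centring, the mean of probe sets, all probe sets, array weights, the trend and robust options, and the 2 groups alone. It was 1054 with the negative-control covariate (71.73% higher, against 53.53% with all mice and no covariate) and 2544 without combined mice 2 and 4 (61.87% higher). Leaving out each filtered-air or combined mouse gave 3394 (without combined mouse 4) to 4338 (without combined mouse 5). Of the interaction's 22 genes the count became 108 with array weights, 44 with the covariate, 10 without combined mice 2 and 4, and 7 to 289 when each mouse was left out. The negative-control difference was 0.14 to 0.22 when each mouse was left out (exact permutation p = 0.00794 to 0.0556, the highest without filtered-air mouse 5). Of the 107 called genes described, 101 kept their call whichever single filtered-air or combined mouse was left out. Mice with PM2.5 alone or metformin alone were left out for the interaction count only. Array weights ended the calls of Msmo1, Sc5d and Dbp, the trend and robust options that of Cdkn1a, and the fit of the 2 groups alone those of Dbp and Tiparp.

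Signs turned for uncalled genes alone: Saa1 (-0.34 with the covariate, -0.10 without combined mice 2 and 4), Prkaa1 (0.15 with the covariate), Prkaa2 (0.043 without combined mice 2 and 4), Nqo1 (-0.26 without combined mouse 2 to 0.069 without combined mouse 4, the one mouse that turned it) and Hmox1 (-0.11 without combined mouse 1 to 0.20 without combined mouse 3, and below 0 also without filtered-air mouse 2 or 5 or combined mouse 5). The cause was not tested. No paired analysis was possible because the labels carry no replicate numbers, and the numbers used here only name mice. With 5 mice a group, the covariate and the treatment overlap in part, and genes near the negative-control signal have no measured size.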
